A study of Arabidopsis thaliana with 12 samples.

Results

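The genes described here serve the seed's reserves, and were followed in 14-day Arabidopsis seedlings given acyl-CoA. They are 10 of the 28642 genes listed, and all 10 were found by their locus identifiers. Carriers of stored oil towards sugar are 3 of them: ICL (AT3G21720, isocitrate lyase), MLS (AT5G03860, malate synthase) and PCK1 (AT4G37870, phosphoenolpyruvate carboxykinase). The other 7 encode seed storage or oil body proteins: the cruciferins CRA1 (AT5G44120), CRU2 (AT1G03880) and CRU3 (AT4G28520), the oleosin OLEO1 (AT4G25140) and the 2S albumins SESA1 (AT4G27140), SESA2 (AT4G27150) and SESA3 (AT4G27160). The members were chosen by their read counts in the C18:0 CoA libraries, where reserve genes had been seen to be high in single libraries, so every value of C18:0 CoA against control is given here as a description, with no test.

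Wild-type seedlings were grown in liquid half-strength MS medium with sucrose in multi-well plates, and whole seedlings were sequenced as mRNA libraries, each from a pool of 80 plants. Each of 4 groups had 3 libraries. The treated groups received C18:0 CoA (stearoyl-CoA, saturated), C18:1 CoA (oleoyl-CoA, the same chain length with 1 double bond) or C16:0 CoA (palmitoyl-CoA, saturated and shorter), each at 0.1% for 90 minutes. Control seedlings received for the same time the vehicle, 0.01% Pluronic F68, a surfactant that the acyl-CoA solutions contained too. Because each library is a pool of whole plants, fewer cells that express a gene and less RNA of it per cell cannot be told apart, nor can 1 unusual plant and a small change in all 80.

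In germinating oilseeds, stored triacylglycerol is broken down to fatty acids, and peroxisomal beta-oxidation turns these into acetyl-CoA. Isocitrate lyase and malate synthase form the glyoxylate cycle, which builds 4-carbon acids from acetyl-CoA without losing carbon as CO2, and phosphoenolpyruvate carboxykinase then opens the way to sugar. Storage proteins and oleosins are made in the maturing embryo under the transcription factors LEC1, LEC2, FUS3 and ABI3, and their genes are held silent in seedlings by the VAL repressors and the chromatin remodeller PICKLE.

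Upstream windows are shown for 4 storage genes because they carry different numbers of the motifs through which maturation factors act, while their read numbers differed too. Each window holds the 250 bases before the RefSeq gene start in the TAIR10.1 genome, written 5′ to 3′ on the gene's strand. Capitals mark the RY motif CATGCA, which reads TGCATG on the other strand, which B3-domain factors such as ABI3 and FUS3 bind, and the G-box CACGTG, a palindrome that bZIP factors bind. None of these windows overlapped another annotated gene.
CRA1, chr5:17758337-17758586, minus strand: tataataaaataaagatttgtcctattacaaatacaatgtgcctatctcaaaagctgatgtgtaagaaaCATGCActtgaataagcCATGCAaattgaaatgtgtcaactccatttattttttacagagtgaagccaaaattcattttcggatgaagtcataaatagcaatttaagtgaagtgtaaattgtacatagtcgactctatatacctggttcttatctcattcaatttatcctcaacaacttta
CRU3, chr4:14087306-14087555, plus strand: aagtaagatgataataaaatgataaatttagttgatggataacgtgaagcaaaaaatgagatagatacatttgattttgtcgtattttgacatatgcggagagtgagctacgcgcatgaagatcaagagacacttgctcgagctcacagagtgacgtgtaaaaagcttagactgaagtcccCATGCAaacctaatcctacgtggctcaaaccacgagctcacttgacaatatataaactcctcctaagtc
OLEO1, chr4:12900180-12900429, plus strand: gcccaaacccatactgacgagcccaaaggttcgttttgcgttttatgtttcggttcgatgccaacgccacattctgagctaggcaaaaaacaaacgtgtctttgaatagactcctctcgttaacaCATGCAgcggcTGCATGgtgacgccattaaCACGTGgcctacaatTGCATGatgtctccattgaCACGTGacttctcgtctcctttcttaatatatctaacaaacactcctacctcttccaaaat
SESA3, chr4:13611546-13611795, plus strand: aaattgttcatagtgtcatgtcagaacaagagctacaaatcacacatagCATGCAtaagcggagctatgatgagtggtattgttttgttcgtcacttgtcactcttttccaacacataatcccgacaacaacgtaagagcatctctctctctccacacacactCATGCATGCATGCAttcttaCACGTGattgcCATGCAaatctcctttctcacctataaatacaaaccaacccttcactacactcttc
The RY motif was found 2 times before CRA1 and 1 time before CRU3. OLEO1 had 3 RY motifs and 2 G-boxes, SESA1 had 2 and 1, SESA2 had 3 and 1, and SESA3 had 7 and 1, where overlapping copies on either strand were counted separately. No window of ICL, MLS or PCK1 held either motif. Of 27443 windows of protein-coding genes, 8.43% held an RY motif, 6.49% a G-box and 0.678% both. A match describes the letters only and shows no binding.

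The libraries held between 348140 and 6126277 exon reads, a 17.6-fold range, and 3 of them held fewer than 1000000: the second C18:0 CoA library, the first of C18:1 CoA and the second of C16:0 CoA. Levels are exon reads per 1000000 on TMM-scaled library totals (CPM), and 3 reads corresponded to between 0.49 and 8.62 CPM before scaling, depending on the library. Levels of different members are compared per kb of exon, and ranks by CPM take no account of length. Intervals are exact 95% Poisson intervals of a count and cover counting error only. The shoot and root of the seedlings were both present: all 8 leaf photosynthesis genes had reads in every library, with CAB1, a chlorophyll-binding protein, at 6005 CPM in control, and all 8 root genes had reads in 11 of the 12 libraries and 7 of them in C16:0 CoA replicate 2.

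Averaged over the 12 libraries and set per kb of exon, PCK1 stood at 134 CPM per kb, 53.7 times ICL, which came next at 2.49. CRA1 at 2.30, CRU3 at 2.19 and MLS at 1.86 CPM per kb followed, and their ranges over libraries overlapped each other and that of ICL. SESA3 had 1.03, SESA2 0.258, SESA1 0.216, OLEO1 0.0789 and CRU2 0.0555 CPM per kb, averages that rest on 16, 7, 7, 3 and 4 reads in all. This order is carried in part by C18:0 CoA replicate 3. In the control group the means per kb were 141 CPM for PCK1, 2.59 for MLS, 1.53 for ICL, 1.40 for SESA3, 1.11 for CRU3 and 0.269 for CRA1, so MLS came second there and CRA1 last of the 6. By mean CPM, which takes no account of exon length, PCK1 ranked 453 among the 28642 listed genes, of which 6448 had no exon read. The other members ranked from 15590 for ICL to 21255 for OLEO1.

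CRA1 and CRU3, which encode 12S globulin subunits of the embryo's protein storage vacuoles, held most of the storage signal. The 7 storage genes together had 222 exon reads in 12 libraries, of which CRA1 and CRU3 gave 185, or 83.3%. A single library, C18:0 CoA replicate 3, gave 126 of the 222, or 56.8%, although it held 7.86% of all exon reads.

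CRA1 had 3, 1 and 1 reads in control replicates 1 to 3 (0.474, 0.202 and 0.769 CPM). With C18:0 CoA it had 5, 7 and 66 reads (1.14, 12.2 and 26.5 CPM). The C18:1 CoA libraries had 2, 0 and 0 reads (5.88, 0 and 0 CPM), and the C16:0 CoA libraries 5, 0 and 0 (2.24, 0 and 0 CPM). All 3 C18:0 CoA libraries lay above all 3 controls, but only C18:0 CoA replicate 3 rests on more than 7 reads. The group mean was 13.3 ± 12.7 CPM (SD, n = 3) with C18:0 CoA and 0.481 ± 0.284 CPM (SD, n = 3) in control, and without C18:0 CoA replicate 3 the mean of the other 2 was 6.68 CPM. CRA1 was the 1 member of 10 whose C18:0 CoA libraries all lay above the controls, and no member's all lay below. Among 17036 genes tested, 5.88% lay apart in the higher and 6.47% in the lower direction in that comparison.

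CRU3 too was highest in C18:0 CoA replicate 3, although its control reads did not follow those of CRA1. It had 1, 6 and 6 reads in control (0.158, 1.21 and 4.61 CPM) and 15, 6 and 55 with C18:0 CoA (3.43, 10.5 and 22.1 CPM). With C18:1 CoA it had 1, 0 and 0 reads (2.94, 0 and 0 CPM), and with C16:0 CoA 5, 0 and 0 (2.24, 0 and 0 CPM). The C18:0 CoA and control ranges overlapped through control replicate 3 and C18:0 CoA replicate 1. Mean levels were 12.0 ± 9.43 CPM with C18:0 CoA and 1.99 ± 2.33 CPM in control (SD, n = 3 each), and 6.95 CPM over the 2 C18:0 CoA libraries other than replicate 3. Over the 12 libraries, log2 CPM of CRA1 and CRU3 correlated with Pearson r = 0.91, and with r = 0.85 over 11 libraries without C18:0 CoA replicate 3. This is a description of points that share library and depth, for 2 genes chosen by their reads in the C18:0 CoA libraries.

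**Figure D1:**
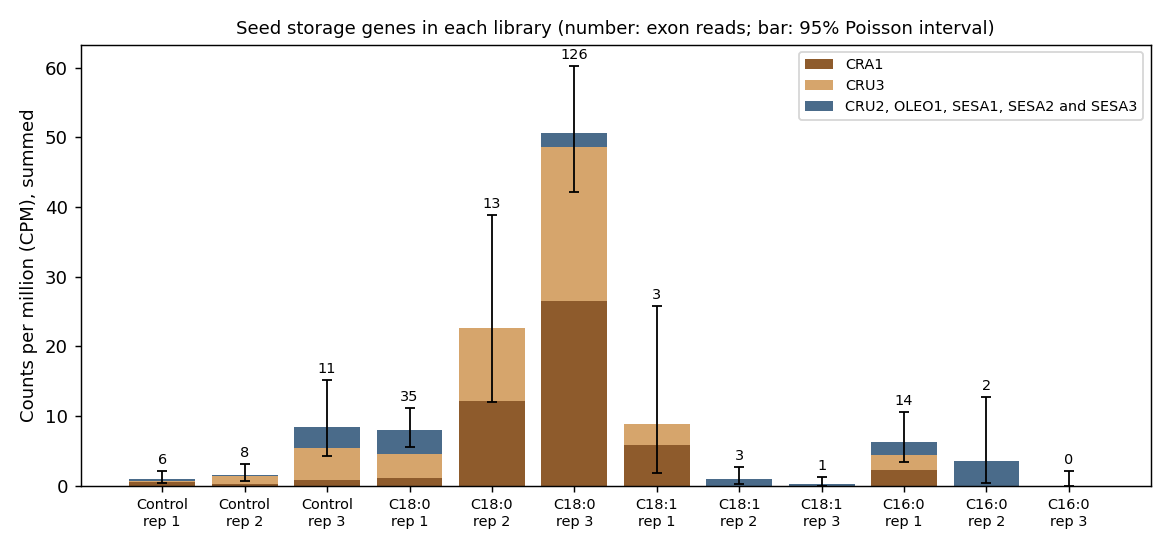
Summed level of the 7 storage genes in each library (y axis, CPM; x axis, the 12 libraries by group and replicate), stacked as CRA1, CRU3 and the other 5 genes, with the summed exon reads printed above each bar and the exact 95% Poisson interval of the sum as a line. C18:0 CoA replicate 3 reached 50.6 CPM from 126 reads, and the next highest, C18:0 CoA replicate 2, reached 22.7 CPM from 13 reads.

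The other storage genes stayed at a few reads in every library. CRU2, the remaining cruciferin, had 3 reads in C18:0 CoA replicate 1 and 1 read in replicate 3, and none in the other 10 libraries. OLEO1, the oleosin that coats seed oil bodies, had 2 reads and 1 read in the same 2 libraries and none elsewhere. SESA1 had 5 reads in C18:0 CoA replicate 1, and 1 read each in C18:1 CoA replicate 3 and C16:0 CoA replicate 1. SESA2 had at most 2 reads in any library, 7 in all. SESA3 had 16 reads over 7 libraries. In control these were 1, 0 and 4, and the C18:0 CoA libraries had 5, 0 and 2. The C18:1 CoA libraries held 0, 1 and 0, those of C16:0 CoA 1, 2 and 0. In C18:0 CoA replicate 3, where CRA1 and CRU3 had 66 and 55 reads, these 5 genes had 5 reads between them, so that CRA1 and CRU3 made up 96.0% of its storage reads. The 3 albumin genes are similar in coding sequence, with 82.6% identical bases between SESA1 and SESA3, 85.7% between SESA1 and SESA2 and 94.1% between SESA2 and SESA3. Each 50-base word within their exons nevertheless occurred once in the genome, as it did for the 3 cruciferins and OLEO1. SESA4, an albumin gene next to them on chromosome 4, had 15 reads in all, 3 of them in C18:0 CoA replicate 3, and SESA5 had 1.

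Summed over the 7 storage genes, control libraries held 6, 8 and 11 reads (0.947, 1.62 and 8.46 CPM) and C18:0 CoA libraries 35, 13 and 126 (8.00, 22.7 and 50.6 CPM). C18:1 CoA libraries held 3, 3 and 1 reads (8.81, 0.921 and 0.233 CPM) and C16:0 CoA libraries 14, 2 and 0 (6.27, 3.53 and 0 CPM). The highest C18:0 CoA library was 5.99 times the highest control and 2.23 times the next highest library. The lowest, replicate 1 at 8.00 CPM with an interval from 5.58 to 11.1, lay inside the control range. The difference of means, 23.4 CPM, became 11.7 CPM without C18:0 CoA replicate 3.

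ICL, the enzyme that splits isocitrate into glyoxylate and succinate, was also highest in C18:0 CoA replicate 3. It had 15, 30 and 2 reads in control (2.37, 6.06 and 1.54 CPM) and 17, 5 and 69 with C18:0 CoA (3.89, 8.73 and 27.7 CPM). C18:1 CoA libraries had 0, 11 and 11 reads (0, 3.38 and 2.56 CPM) and C16:0 CoA libraries 14, 0 and 4 (6.27, 0 and 2.25 CPM). That library was 3.18 times the next highest, and the C18:0 CoA range overlapped the control range. The C18:0 CoA mean was 13.4 ± 12.6 CPM (SD, n = 3), or 6.31 CPM over the 2 libraries other than replicate 3, beside 3.32 ± 2.41 CPM in control (SD, n = 3).

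MLS, which joins glyoxylate to acetyl-CoA to make malate, had 23, 26 and 8 reads in control (3.63, 5.25 and 6.15 CPM) and 9, 1 and 29 with C18:0 CoA (2.06, 1.75 and 11.7 CPM). It had 1, 9 and 9 reads with C18:1 CoA (2.94, 2.76 and 2.098 CPM) and 6, 0 and 4 with C16:0 CoA (2.69, 0 and 2.25 CPM). C18:0 CoA replicate 3 was the highest library and 1.90 times the next, while the other 2 C18:0 CoA libraries were below all 3 controls. The C18:0 CoA mean was 5.15 ± 5.63 CPM (SD, n = 3), or 1.90 CPM over the 2 libraries other than replicate 3, beside 5.01 ± 1.28 CPM in control (SD, n = 3). Every C18:1 CoA and C16:0 CoA library lay below every control library by its point value. The shallow C18:1 CoA replicate 1 and C16:0 CoA replicate 2 rest on 1 and 0 reads there.

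PCK1, which makes phosphoenolpyruvate from oxaloacetate and is used in leaves and roots as well as in the seedling's oil-fed phase, was well expressed throughout. Its reads were 2032, 1891 and 414 in control (321, 382 and 318 CPM) and 1227, 190 and 1120 with C18:0 CoA (281, 332 and 450 CPM). They were 82, 1000 and 1333 with C18:1 CoA (241, 307 and 311 CPM) and 721, 150 and 600 with C16:0 CoA (323, 265 and 337 CPM). The same library was again the highest, while C18:0 CoA replicate 1 was below all 3 controls. The C18:1 CoA libraries were all below the controls, and the C16:0 CoA libraries overlapped them.

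**Figure D2:**
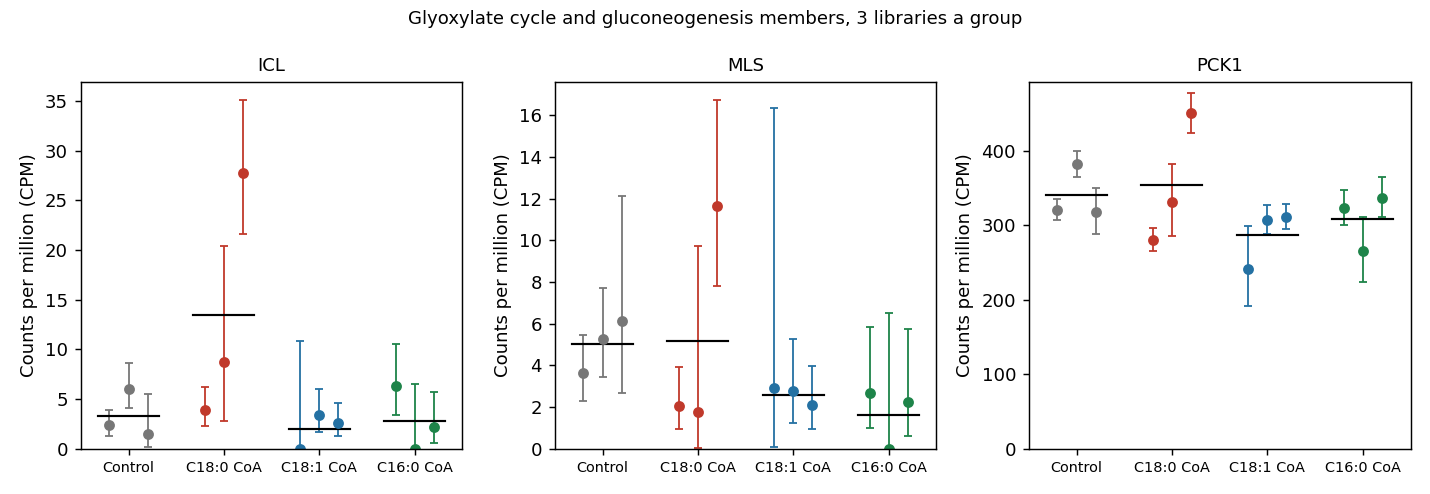
Level of ICL, MLS and PCK1 in each library (y axes, CPM, with a scale of their own for each gene; x axes, the 4 groups with replicates 1 to 3 from left to right), as points with exact 95% Poisson intervals and a black line at the group mean. C18:0 CoA replicate 3 is the highest library for each gene, at 27.7, 11.7 and 450 CPM.

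The 3 genes varied together to different degrees. Over the 12 libraries log2 CPM of ICL correlated with PCK1 at Pearson r = 0.87 and with MLS at r = 0.61, and over the 11 libraries without C18:0 CoA replicate 3 these became 0.77 and 0.39. With the summed storage reads, ICL correlated at r = 0.39, MLS at 0.31 and PCK1 at 0.21, and without that library at 0.05, -0.04 and -0.31. These correlations describe the libraries and share their depth.

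Both remaining comparisons with control and the one between C18:1 CoA and C16:0 CoA do not set the C18:0 CoA libraries against others, although these enter the filter on low counts and the shared estimate of spread. They were tested with edgeR's quasi-likelihood test over 17036 genes with Benjamini-Hochberg adjustment. ICL, MLS, PCK1, CRA1 and CRU3 passed the filter on low counts. CRU2, OLEO1, SESA1, SESA2 and SESA3 did not. When only the 2 groups compared were read, ICL, CRA1 and CRU3 did not pass in any of the 3 comparisons and MLS passed only for C18:1 CoA against control, and CRU3 did not pass without C18:0 CoA replicate 3. Their values are given below as a description. PCK1, which passed under each of these settings, was not called in any of the 3 comparisons, where 0% of all genes were called in either direction. At an unadjusted p under 0.05, which PCK1 did not reach, edgeR gave 123 genes (0.722%) higher and 216 (1.27%) lower with C18:1 CoA. For C16:0 CoA it gave 466 (2.74%) and 220 (1.29%), and for C18:1 CoA against C16:0 CoA 153 (0.898%) and 330 (1.94%). DESeq2 called 2, 0 and 1 genes, none of them a member. Both comparisons with control share the same 3 control libraries.

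MLS point values lay below control in 3 of 3 libraries of both groups. Its log2 fold change was -0.96 with C18:1 CoA (SE 0.72, 95% interval -2.47 to 0.56, edgeR adjusted p = 1.00). With C16:0 CoA it was -1.19 (SE 0.81, interval -2.89 to 0.51), given without p as a description. Both intervals include 0. The shallow C18:1 CoA replicate 1 had 1 read of MLS (0.0744 to 16.4 CPM) and the shallow C16:0 CoA replicate 2 had 0 (0 to 6.52 CPM). These 2 counting intervals reach above the highest control, 6.15 CPM. In the authors' deposited table the adjusted p-values of MLS were 0.204 for C18:1 CoA and 0.340 for C16:0 CoA. MLS and PCK1 were the 2 members whose C18:1 CoA libraries all lay below the controls, and MLS the 1 member for C16:0 CoA, where 5.15% and 5.96% of all genes did so. No member lay above in either, where 4.13% and 5.44% of genes did. Between C18:1 CoA and C16:0 CoA no member lay apart, where 3.81% of genes lay apart in the higher and 4.29% in the lower direction.

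PCK1, with the most reads, had the narrowest intervals. Its log2 fold change was -0.24 with C18:1 CoA (SE 0.21, interval -0.67 to 0.19, edgeR adjusted p = 1.00) and -0.14 with C16:0 CoA (SE 0.20, interval -0.57 to 0.29, adjusted p = 0.988). C18:1 CoA against C16:0 CoA gave -0.10 (interval -0.53 to 0.34), so these libraries do not show a difference between the 2 chains for PCK1 and leave room for one of that size. ICL gave -0.41 (interval -2.18 to 1.35) with C18:1 CoA, -0.00 (interval -1.80 to 1.80) with C16:0 CoA and -0.41 (interval -2.38 to 1.55) between the 2. MLS gave 0.23 (interval -1.63 to 2.09) between the 2.

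For CRU3 the deposited table gives a small adjusted p, while the edgeR value is a description only. The authors' deposited table gives CRU3 a weighted proportions fold change of -15.3 for C18:1 CoA against control, a plain fold with a minus sign for lower that equals -3.94 on the log2 scale, with an adjusted p of 9.19e-07. CRU3 entered the edgeR fit only with C18:0 CoA replicate 3 present, and its spread was estimated from all 12 libraries. No p is therefore read from that fit. For 1, 6 and 6 reads in control and 1, 0 and 0 with C18:1 CoA, its log2 fold change was -2.86 (SE 2.42, interval -7.93 to 2.21). That value became -4.97 without C18:1 CoA replicate 1 and -5.14 without the 3 shallow libraries, and -1.89 without C18:1 CoA replicate 3 or -1.91 without control replicate 3. These refits depend on C18:0 CoA replicate 3 as well and are given without p. The C18:1 CoA and control libraries overlapped, since the single read in the shallow C18:1 CoA replicate 1 amounts to 2.94 CPM and the single read in control replicate 1 to 0.158 CPM. For C16:0 CoA, CRU3 gave -0.29 (interval -3.25 to 2.66) and CRA1 1.27 (interval -2.41 to 4.96). CRA1 gave -0.41 (interval -4.87 to 4.06) for C18:1 CoA, whereas the authors' deposited table lists a fold change of 2.53 in the other direction with an adjusted p of 1.0. Between C18:1 CoA and C16:0 CoA, CRA1 gave -1.68 (interval -6.17 to 2.81) and CRU3 -2.57 (interval -7.96 to 2.83), and no library of C16:0 CoA other than replicate 1 had a read of either gene.

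Of the 5 genes that did not pass the filter, CRU2 and OLEO1 had no read in control, C18:1 CoA or C16:0 CoA, so nothing could be tested. For SESA1, SESA2 and SESA3 an exact two-sided permutation test of CPM over 3 against 3 libraries gave a smallest p of 0.7 in 6 tests, 1.0 after adjustment, in a design that cannot go below 0.1.

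**Figure D3:**
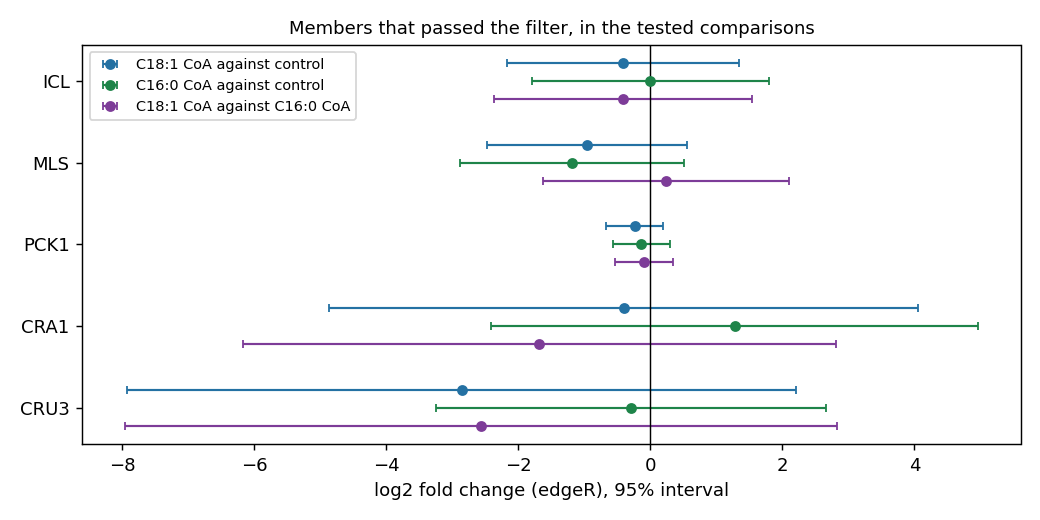
Log2 fold change (x axis) of the 5 members that passed the filter (y axis) in the 3 tested comparisons, as points with 95% intervals from the edgeR fit over all 12 libraries. Every interval includes 0, and those of PCK1 are the narrowest. Values of ICL, CRA1 and CRU3, and of MLS in comparisons with C16:0 CoA, are a description. Other groups carried these genes past the filter, and no test is read from their intervals.

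Lane and index differed between libraries. Lane 1 held control replicate 1 and C18:1 CoA replicate 3, lane 2 held control replicate 2 and C16:0 CoA replicate 1, and lane 3 held control replicate 3 and C16:0 CoA replicate 2. Within these lanes the log2 ratio of treated over control for PCK1 was -0.05, -0.24 and -0.26. For MLS it was -0.79 and -0.97 in the first 2 lanes, and in lane 3 MLS had 0 reads against 8. ICL gave 0.12 and 0.05, and 0 reads against 2 in lane 3. C18:0 CoA replicate 3 was the only one of the 12 libraries in its lane, so its lane and its high levels cannot be told apart. All 3 C16:0 CoA libraries and C18:1 CoA replicate 3 carried another i7 index than the rest. Index and treatment therefore cannot be told apart for C16:0 CoA against control. A fit with the index as a covariate takes the index effect from C18:1 CoA replicate 3 alone, against the other C18:1 CoA libraries. In that fit the log2 fold change for C16:0 CoA was -0.79 for MLS and -0.30 for PCK1. For C18:1 CoA it was -0.78 and -0.30. Neither set is a C16:0 CoA or C18:1 CoA effect freed of the index.

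All 11 further genes of the glyoxylate cycle and gluconeogenesis passed the filter, and none was called, as was true of all 17036 genes. With C18:1 CoA 2 of the 11 had a positive log2 fold change and 9 a negative one, with a median of -0.14, and with C16:0 CoA the same split gave a median of -0.20, beside medians of 0.00 and -0.00 over all genes. The aconitases ACO3 and ACO1 led the list, at 527 and 424 CPM in control. PPDK, which makes phosphoenolpyruvate from pyruvate, had the smallest unadjusted p, 0.0442 with C18:1 CoA at a log2 fold change of -0.60 (SE 0.28), which edgeR's adjusted p of 1.00 did not pass. CSY2, a peroxisomal citrate synthase, stood at 56.3 CPM in control and 38.8 with C18:1 CoA (adjusted p = 1.00 in edgeR). The summed list lay between 1868 and 1946 CPM in control and between 1665 and 1748 in the C18:0 CoA libraries, where replicate 3 with 1742 CPM did not stand apart. It lay between 1651 and 1794 CPM with C18:1 CoA and between 1633 and 1786 CPM with C16:0 CoA. Every treated library was thus below every control in this sum, a difference that was not tested.

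The 7 genes of reserve oil breakdown all passed the filter and none was called. Their median log2 fold change was -0.06 with C18:1 CoA and -0.02 with C16:0 CoA. GLI1, the glycerol kinase, had 113 CPM in control, the lipase SDP1 60.1 and the peroxisomal transporter PXA1 45.8. In C18:0 CoA replicate 3 the list summed to 301 CPM, below all 3 controls at 306 to 324 CPM.

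Seed and endosperm marker lists were read beside the storage genes. Of the 18 late embryogenesis genes, 15 had a read somewhere and none passed the filter, and ECP63, AT2G42560 and AT3G22490 had no exon read in any library. Their summed level was 4.10 to 6.15 CPM in control, 4.12, 5.24 and 18.9 CPM with C18:0 CoA, 5.53 to 14.7 with C18:1 CoA and 3.58 to 19.4 with C16:0 CoA. Replicate 3 of C18:0 CoA was high here with 47 reads, and C16:0 CoA replicate 2 was as high with 11 reads. M17 had 12 of its reads in C18:0 CoA replicate 3 and 2 in the other 11 libraries, and PER1, the seed peroxiredoxin, 7 and 3, both picked after their values were seen. EM1, a defining marker of the mature embryo, had 1 read in all libraries together, none of it with C18:0 CoA, and EM6 had 3 reads in C18:0 CoA replicate 3. The best expressed of the list were LEA7, AT4G21020 and LEA4-5, each under 3 CPM in every group mean. The part that seed tissue in a pool plays in the storage reads was not tested.

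Among 17 further storage protein and oil body genes, 13 had a read, and AT2G18540, CLO1, HSD1 and OBAP1A had none. Summed, they were at 5.65 to 7.69 CPM in control and 12.3, 14.0 and 13.7 CPM with C18:0 CoA, 4.66 to 7.06 with C18:1 CoA and 9.54 to 12.4 with C16:0 CoA. OLEO4, an oleosin that made up 134 of these reads, was the 1 gene that passed the filter. It stood at 3.63, 1.41 and 1.54 CPM in control and at 6.17, 10.5 and 7.64 CPM with C18:0 CoA. With C16:0 CoA it had 5.82, 8.84 and 5.61 CPM, all above control, for a log2 fold change of 1.40 (SE 0.58) that did not pass edgeR's adjustment (adjusted p = 0.988, unadjusted p = 0.0245). By point value OLEO4 was highest in the shallow C18:0 CoA replicate 2, where 10.5 CPM corresponds to 6 reads, with an interval from 3.84 to 22.8 CPM. That interval includes its 7.64 CPM in C18:0 CoA replicate 3, so the order of these 2 libraries is within counting error. AT3G01570, another oleosin gene, had 42 reads, and TIP3-2, a seed vacuole aquaporin, 21, of which 6 fell in control replicate 3.

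The 3 endosperm genes summed to 13.6 to 19.99 CPM in control, 13.3, 14.0 and 31.4 CPM with C18:0 CoA, 10.3 to 23.5 with C18:1 CoA and 8.84 to 29.1 with C16:0 CoA. MAN7, a mannanase, gave most of it and was at 25.7 CPM in C18:0 CoA replicate 3 and 26.0 CPM in C16:0 CoA replicate 1. EPR1, an extensin-like gene of the endosperm, had 35 reads in all, 13 of them in C18:0 CoA replicate 3. Its level was 0.158 to 3.84 CPM in control and 1.14 to 5.24 CPM with C18:0 CoA, so these ranges overlapped. It reached at most 0.233 CPM with C18:1 CoA and 2.69 CPM with C16:0 CoA. EXPA2, a germination expansin, had 5 reads in all libraries.

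**Figure D4:**
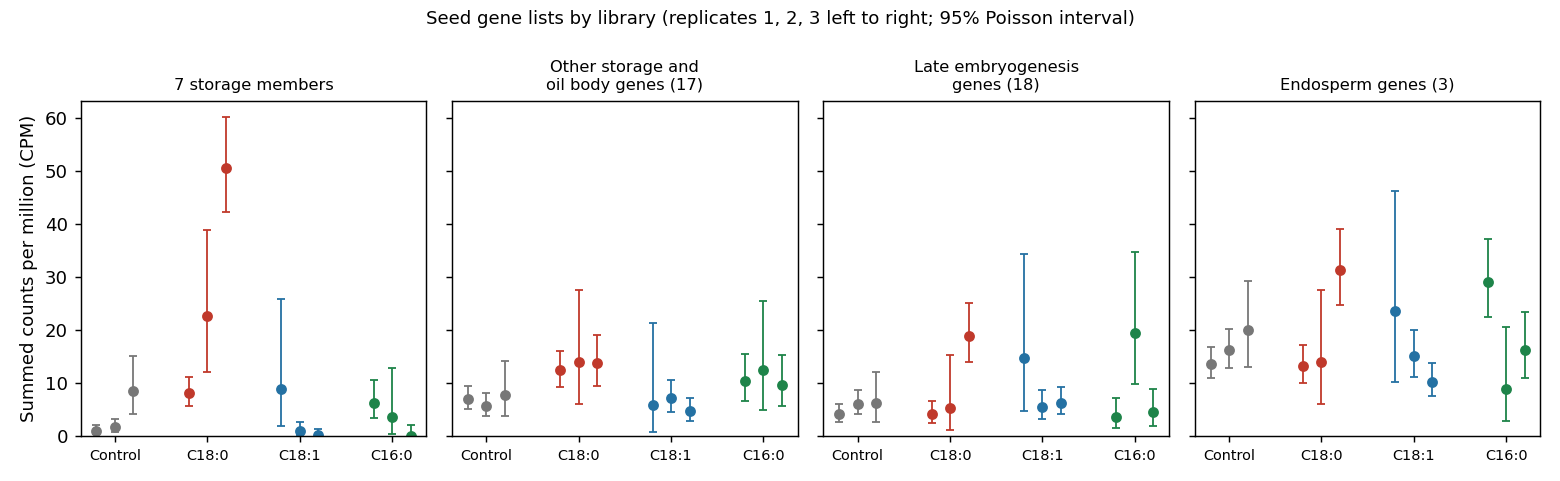
Summed level (y axis, CPM) of the 7 storage genes, 17 further storage and oil body genes, 18 late embryogenesis genes and 3 endosperm genes in each library (x axis, group; replicates 1 to 3 from left to right), with exact 95% Poisson intervals. C18:0 CoA replicate 3 stands at 50.6 CPM for the storage genes and at 13.7, 18.9 and 31.4 CPM for the other lists, where other libraries reach similar levels.

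Regulators of the seed programme were mostly near the floor. Of 12 maturation regulators, LEC1, ABI4 and bZIP53 had no exon read in any library. Whether these are among the 1314 genes listed with an exon length of 0 was not checked. LEC2 had 1 read, in control, and FUS3 had 1 read in C18:0 CoA replicate 3 and 2 in control replicate 3. ABI3 had 8 reads in C18:0 CoA replicate 3 (3.22 CPM), its highest, and 5, 5 and 1 in control (0.789, 1.01 and 0.769 CPM). Of the list, 4 passed the filter, and none was called with C18:1 CoA or C16:0 CoA. bZIP25 led with 120 CPM in control, bZIP10 with 53.2 and WRI1, an activator of oil synthesis, with 16.96. ABI5, an abscisic acid response factor, had a log2 fold change of 0.98 with C18:1 CoA (SE 0.60, edgeR adjusted p = 1.00). The 9 repressors of seed genes, of which 8 passed, had no call either, with medians of 0.00 for C18:1 CoA and -0.17 for C16:0 CoA. Their sum in C18:0 CoA replicate 3 was 452 CPM, between the controls at 424 to 469 CPM. HDA19, a histone deacetylase, was at 123 CPM in control, PKL, the chromatin remodeller PICKLE, at 86.4 and VAL1 at 47.9.

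Vacuolar processing enzymes cut the cruciferin and albumin precursors in the seed. Of the 4 listed, 3 passed the filter and none was called. Their sum was 68.8 to 81.4 CPM in control and 48.3, 83.8 and 84.0 CPM with C18:0 CoA, and betaVPE, the seed form, was at 9.10 CPM in control and 10.1 CPM with C18:0 CoA.

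Genes with patterns most like the members were sought among 16967 genes with at least 100 exon reads, by Pearson r of log2 CPM over the 12 libraries. Nearest to the summed storage reads were bHLH115 (r = 0.87), AT5G43720 (0.87), AT3G04310 (0.86), NUDT7 (0.85) and EXLB1 (0.85). AT1G64065 and ZIP1 (0.90 and 0.89) were nearest to ICL, CPK21 and AT5G38200 (both 0.90) to MLS, and AT1G36622 and AT2G45220 (0.90 and 0.89) to PCK1. These are the best of many genes over few points that share depth, and carry no test.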

How the data were processed

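Whole-seedling mRNA was sequenced as stranded paired-end libraries and mapped to TAIR10, per the labels' protocols and the submitters' processing notes. For the aligner's version and the use of strand in counting, the labels give no details. The deposited table holds counts of exon, gene, intron and exon-exon junction reads per gene and library, per the file headers, and total and unique exon reads were equal throughout. It also holds the authors' own comparisons, a false-discovery-corrected p-value and a weighted proportions fold change (a signed score, negative for lower), per the file headers.

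Exon counts were analysed as deposited, in R 4.3.3 with edgeR 4.0.16 (filterByExpr by group, TMM, quasi-likelihood test over all 12 libraries, 17036 genes kept, threshold 0.05 on Benjamini-Hochberg adjusted p), and tested on simulated data first. Standard errors are Wald errors from the fitted means. DESeq2 1.42.0 was an alternative. For log2 CPM in correlations the prior count was 2. Permutation tests used SciPy 1.17.1. The 1 line naming no gene held no exon reads. Of the identifiers, 28009 matched RefSeq locus tags. Of 27996 with a RefSeq gene entry all overlapped it in position, and sequences are from RefSeq TAIR10.1. Replicates are labelled biological pools, and no pair of libraries of the same group agreed within sampling noise.

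The members and lists were chosen with earlier results of these data known. Named are the members, SESA4 and SESA5, in each other list the 3 genes with the highest mean CPM and up to 3 with the smallest p against control, and the 5 genes most like each profile, not all printed. Other list genes named (ECP63, AT2G42560, AT3G22490, M17, PER1, EM1, EM6, AT2G18540, CLO1, HSD1, OBAP1A, LEC1, LEC2, FUS3, ABI3, ABI4 and bZIP53 among them) were chosen after their values were seen; one gene and one upstream sequence are not reported here. Lists read were further glyoxylate cycle and gluconeogenesis genes, oil breakdown, storage and oil body, late embryogenesis, regulators, repressors, vacuolar processing, endosperm, leaf and root genes. For leaf and root lists no gene was called in the 3 tested comparisons.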

Additional observations from a re-analysis of the deposited data

Results flagged for a closer look

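Reads that span an exon-exon junction were used in no comparison above. CRA1 had 18 such reads in C18:0 CoA replicate 3, and CRU3 had 15 there, 6 in C18:0 CoA replicate 1 and 3 in C18:0 CoA replicate 2, while neither gene had any in the 3 control libraries, which held only 5 and 13 exon reads of CRA1 and CRU3. CRA1 had 2 junction reads in C18:0 CoA replicate 1, 0 in replicate 2 and 1 in C16:0 CoA replicate 1. They made up 27.3% of the exon reads of each gene in C18:0 CoA replicate 3, where 32.9% of all exon reads spanned a junction. The 7 storage genes had 0 intron reads in every library.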

How the results depend on the processing

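The summed storage difference of C18:0 CoA over control ranged from 23.0 to 25.7 CPM under other scalings, whole-gene reads, without the albumins or without the shallow libraries, and from 11.7 to 33.0 CPM with 1 library left out. Over 22 settings PCK1 never passed the edgeR or DESeq2 test (smallest adjusted p 0.869), nor did MLS for C18:1 CoA (smallest 0.911). Values of ICL, CRA1 and CRU3, and of MLS in comparisons with C16:0 CoA, are a description, because other groups carried them past the filter. Of 313 refitted member values, 285 had the sign of the reported value. That count includes the values given as a description. It also includes settings that kept every library compared and changed only the scaling or another group, so it does not measure stability. No value could be had with only the 2 groups for ICL, CRA1 and CRU3, nor for MLS in the comparisons with C16:0 CoA, nor without C18:0 CoA replicate 3 for CRU3, nor without the shallow libraries for CRA1.

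Genes called, 0 in each comparison, became for C18:1 CoA 2 with DESeq2, 1 without a filter, 5 without the 3 shallow libraries, 1 with only the 2 groups and 0 to 1 with 1 library left out. For C16:0 CoA they became 2 without the shallow libraries and 2 with lane as a covariate, a fit that compares only libraries sharing a lane. Between C18:1 CoA and C16:0 CoA they became 1 with DESeq2, without a filter and without the shallow libraries, and 0 to 1 with 1 library left out. With lane the C18:1 CoA side of that comparison rests on 1 library, so no count is read from it.

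Signs that turned, the cause not tested, were these. Values of C18:1 CoA with lane rest on its replicate 3 and control replicate 1, its only library that shares a lane with another. Values with the index rest on C18:1 CoA replicate 3 as the only library that separates index from group. ICL for C18:1 CoA became 0.11 with lane and ranged from -0.70 to 0.34 with 1 library left out. For C16:0 CoA, where it was near 0, it became 0.0030 with RLE scaling, 0.26 without the shallow libraries, 0.16 with the replicate block, 0.13 with the index, 0.064 with whole-gene reads and -1.14 to 0.74 with 1 library left out. Between C18:1 CoA and C16:0 CoA it became 0.34 with lane (-0.69 to 0.73 with 1 library left out). CRA1 for C18:1 CoA became 1.42 with DESeq2 and 0.75 with the index (-3.38 to 0.78), for C16:0 CoA it ranged from -3.31 to 1.91, and between the 2 it became 0.50 with DESeq2 (-4.65 to 2.93). CRU3 for C16:0 CoA became 2.66 with the index (-4.91 to 0.64) and between the 2 ranged from -4.65 to 2.02. MLS between the 2 became -0.047 without the shallow libraries (-0.013 to 0.61), and PCK1 0.0064 with the index and 0.21 with lane (-0.18 to 0.0075).

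Replicate numbers did not pair the libraries: of 18 same-numbered pairs 5 had a correlation over 0.1 (range -0.23 to 0.23), and 5 of 12 libraries correlated best with their own number. The replicate block called 0 genes in each comparison. Depth limits CRU2, OLEO1 and the albumins most, at 3 to 16 reads each.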
